A study of Mus musculus with 16 samples.

Results

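The genes described here are 10 regulators and markers of B cell and plasma cell fate. They were chosen by name from the gene name column of the scanner files, with every probe that carries the name, and comprise Pax5, Ebf1, Bcl6, Bach2, Spib, Irf8, Irf4, Prdm1, Xbp1 and Sdc1. They are read by 14 of the 41174 probes on the array, and all 14 passed the filter on dim probes that left 29637 probes and 20467 genes in all. RNA came from cells labelled as follicular B cells, the main population of mature B cells, of C.B17 mice. Each of 8 biological samples was hybridised on 2 dual-colour Agilent mouse arrays with the dyes swapped, against 1 reference RNA pooled from 6 cell lines. Among these J558 is a plasmacytoma line, EL4 a T cell lymphoma line and P388d a macrophage-like line, and the others are R1, RS2 and DN3. The reference thus holds RNA of a plasma cell tumour. Every value given here is a log2 ratio of sample over reference, the mean of the 2 arrays of a sample, or a difference of such ratios. The ratios of different genes are not levels that can be compared with each other.

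There were 5 groups. Auto.Neg (n = 2) came from ATAμκTg mice, transgenic for an autoreactive receptor against the thymocyte antigen Thy-1 (VH3609μ with Vk21-5κ) and knocked out for Thy-1, so that the autoantigen was missing. Auto.Pos (n = 2) came from AGcAμκTg mice, transgenic for a receptor against intestinal goblet cells, with VH3609μ and a light chain that the labels call Vk19-17κ in one place and Vkappa17-17 in another, and labelled autoreactive-positive. WT (n = 2) had no transgene named. Non-edited and Edited (n = 1 each) came from VH3609t +/- x Vk21-5Tg +/- mice on the Thy-1 knockout background and are named as the labels have them. No ages, cell sorting gates or promoters of the transgenes are given in the sources used here, and the labels leave unsaid whether a group's samples are from different mice, so that the p-values rest on the spread of these samples alone, which may be technical. Setting Auto.Pos against Auto.Neg asks what engagement of the receptor by its antigen does to mature B cells, and WT is the control without a fixed receptor. These transgenic groups also differ in light chain, in the antigen recognised and in the Thy-1 knockout, which is named for Auto.Neg only, so engagement cannot be told apart from these.

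The state of a mature B cell is held by a circuit of transcription factors. Pax5 and Ebf1 switch on B cell genes and silence those of other lineages; Bcl6 and Bach2 repress the plasma cell programme; Spib and Irf8 support the follicular state and receptor signalling. In a plasma cell Prdm1 (Blimp-1) shuts the B cell programme down, Xbp1 expands the secretory machinery, and Sdc1 (CD138) marks the surface. Irf4 acts on both sides depending on its dose.

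The scanner software marked between 61.9% and 81.9% of an array's spots as well above background in the sample channel. The mature B cell markers stood far above the reference in every sample, with a median over 10 genes from 5.98 to 6.75. The median of 10 T cell markers lay below the reference, from -1.34 to -0.27, but the reference holds a T cell line, so this does not measure purity. Macrophage and monocyte markers stood above the reference in all 8 samples, with a median over 8 genes from 0.52 to 2.67, although it holds a macrophage-like line. A pair of features of the arrays bears on every comparison. The samples Auto.Neg 2 and Auto.Pos 1 shared slide 2, a scan day and a version of the scanner software that no other sample had, and their ratios over all genes correlated at r = 0.978, against 0.875 to 0.976 for the other pairs of samples. In addition, the deposited table of the authors' processed values disagreed with the scanner files on which array belongs to which sample. Of its 16 columns 6 correlated best with the array of the same name and 10 with another array. In it the columns named Auto.Neg match the 4 arrays of slide 2, those of Auto.Pos 1 match WT 1, those of WT 1 match WT 2 and those of WT 2 match Auto.Neg 1. The mature B cell markers had a positive median on all 16 arrays by the scanner files' dyes. In the table they did so in 14 of 16 columns, and the other 2 reached down to -7.61. The sample names of the scanner files are used throughout, and for the 10 genes it is said where a separation of groups ended under the table's names.

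Of the 10 genes 8 kept to 1 side of the reference. All 6 identity factors were above the reference in all 8 samples, as were 34.4% of all genes, and Prdm1 and Sdc1 were below it in all 8, as were 28.4%. By their median ratio Bcl6, Spib, Bach2 and Irf8 stood at the 98.2, 98.1, 97.6 and 96.2 percentiles of all genes. Sdc1 and Prdm1 stood at the 2.1 and 5.4 percentiles. These are ranks of ratios and not of levels, and they depend on the reference, which holds plasma cell, T cell and macrophage-like lines. Irf4 and Xbp1 crossed the level of the reference between samples. On the probes used for the tests, both channels were well above background on all 16 arrays for each of the 10 genes, and no spot was saturated.

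**Figure D1:**
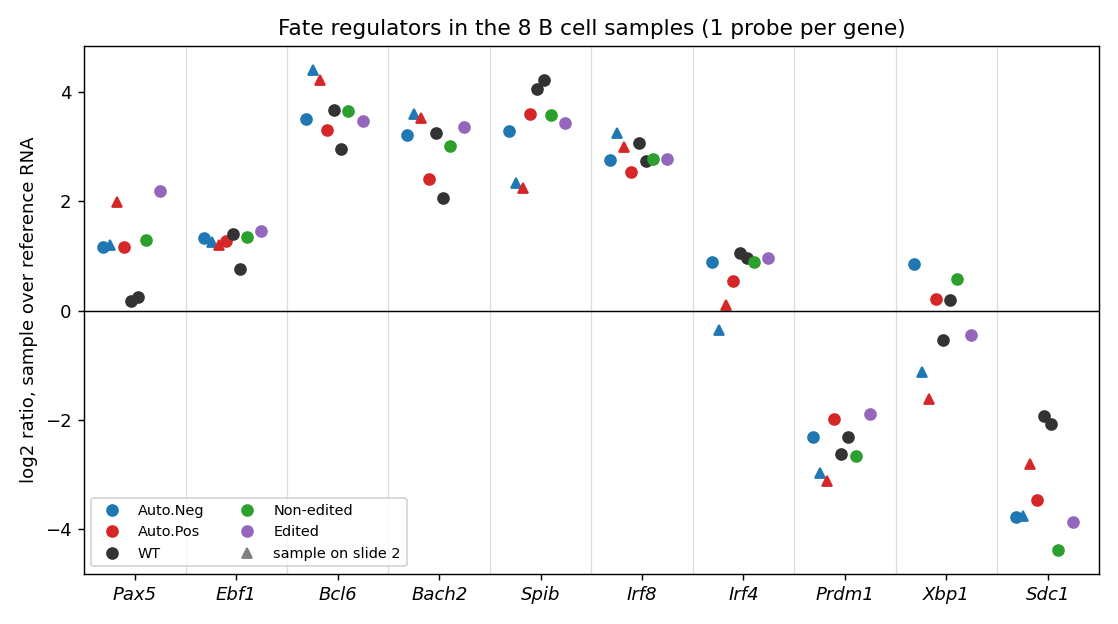
Log2 ratio of sample over reference (y axis) for the 10 genes (x axis) in the 8 samples, 1 point per sample, each the mean of 2 arrays, coloured by group. Triangles are the samples of slide 2. The identity factors lie above 0 and Prdm1 and Sdc1 below it in all 8 samples. WT stands apart for Spib and Sdc1, and for Pax5 on the brighter of its 2 probes, the one drawn. For Irf4 WT is highest, but Edited at 0.96 lies close to WT 2 at 0.97. Xbp1 ranges from -1.61 to 0.85.

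Sdc1 (syndecan-1, the heparan sulfate proteoglycan that marks plasma cells) gave the clearest separation of WT from the transgenic samples. It was read by 1 probe, A_52_P479269, of 60 bases at chr12:8818810-8818869 (mm7, plus strand, the build in the headers of 4 of the 16 files; accession NM_011519). Its first 30 bases, shown because this gene has the smallest p of the 10, are

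Sdc1: atctgtatggtgccccatttttggcggccc

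The ratio of Sdc1 was -3.79 and -3.76 in the Auto.Neg pair, -2.82 and -3.46 in the Auto.Pos pair, -1.93 and -2.08 in the WT pair, -4.38 in Non-edited and -3.86 in Edited. The WT samples were the highest of the 8 and all 6 transgenic samples lay below them. Of the 6, Auto.Neg 1, Non-edited and Edited shared scan day 4, and Auto.Neg 2 and Auto.Pos 1 shared slide 2. They thus do not stand as 6 separate observations. Only Auto.Pos 2 shared a scan day with a WT sample. The share of all genes that split this way was not counted. The sample channel was dim, with a median background-subtracted signal of 381 against 7994 in the reference, and the 2 arrays of a sample differed by up to 0.76. The means were -3.77 ± 0.02 (SD, n = 2) in Auto.Neg, -3.14 ± 0.45 in Auto.Pos and -2.00 ± 0.10 in WT. Auto.Neg lay 1.77 below WT (difference -1.77, 95% interval -2.46 to -1.08, 3.41-fold; limma adjusted p = 0.308), rank 75 of all genes by p. Auto.Pos minus WT was -1.13 (standard error 0.27, limma adjusted p = 0.560). Neither passed the threshold of an adjusted p under 0.05 over all genes, and an F test over the 3 groups gave an adjusted p of 0.505.

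Auto.Pos and Auto.Neg did not overlap for Sdc1 either, with a difference of 0.63 (limma adjusted p = 1.00). On slide 2, which holds 1 sample of each of these groups, the difference was 0.94. On scan day 3, which holds Auto.Pos 2 and WT 2, Auto.Pos minus WT was -1.38; no slide or scan day holds both Auto.Neg and WT. Without the samples of slide 2 the differences from WT were -1.46 and -1.78. They kept their direction when arrays were scaled to a common spread, at -0.56 and -1.43. By the sample names of the deposited table, turned to sample over reference, the separation of WT and that of Auto.Pos from Auto.Neg ended, with WT at -2.15 and -4.11, Auto.Neg at -3.01 and -3.77 and Auto.Pos at -2.00 and -3.60.

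The groups overlapped for Prdm1. This gene, the repressor that drives plasma cell differentiation, was -2.32 and -2.98 in the Auto.Neg pair, -3.12 and -1.98 in the Auto.Pos pair, -2.62 and -2.31 in the WT pair, -2.67 in Non-edited and -1.89 in Edited. Auto.Neg minus WT was -0.18 with a 95% interval of -1.35 to 0.99. The sample channel of Prdm1 was dim too, with a median signal of 76.5 against 946 in the reference. Over the 6 plasma cell markers of a separate list, 2 were higher and 4 lower in Auto.Neg than in WT, with a median difference of -0.09. In Auto.Pos against WT 2 were higher and 4 lower as well, with a median of -0.32 (-0.67 on scan day 3). Markers of macrophages, which can also carry syndecan-1, were lower on balance too, none past the threshold: 0 of 8 were higher in Auto.Neg than in WT (median -0.64) and 1 of 8 in Auto.Pos (median -0.45). Their median ratio was 1.11 and 2.02 in the Auto.Neg pair, 2.67 and 1.42 in the Auto.Pos pair, 2.36 and 2.14 in the WT pair, 0.57 in Non-edited and 0.52 in Edited, and none of the 8 was at background in every sample. The part of these cells in the values of Sdc1 was not tested. Fewer cells of a type and less RNA per cell cannot be told apart in these bulk samples.

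Xbp1, the transcription factor of the unfolded protein response that plasma cells need for secretion, varied more between the samples of a group than any other of the 10 genes. It was read by probe A_52_P185079 at chr11:5476970-5477029 (mm7, plus strand; accession NM_013842), whose whole sequence is

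Xbp1: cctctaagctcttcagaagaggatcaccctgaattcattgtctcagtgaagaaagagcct

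Its ratio was 0.85 and -1.13 in the Auto.Neg pair, -1.61 and 0.21 in the Auto.Pos pair, -0.54 and 0.19 in the WT pair, 0.58 in Non-edited and -0.45 in Edited. The low values were those of slide 2 in both transgenic groups. The SD within groups was 1.14, at the 98.3 percentile of all genes, although the 2 arrays of a sample typically differed by only 0.12. Auto.Pos minus WT was -0.53, with a 95% interval of -2.80 to 1.74, and Auto.Neg minus WT was 0.03, with an interval of -2.24 to 2.30. Without the samples of slide 2 only 1 sample is left in each transgenic group, at 0.85 and 0.21.

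Pax5, the factor that commits cells to the B lineage and holds them there, had 2 probes, of which only the brighter set WT apart. That probe, A_52_P429826, lies at chr4:44538878-44538937 (mm7, minus strand) and was designed on a cDNA clone, accession AK040987. The other, A_51_P122855, was designed on the reference transcript NM_008782, and the ends of its match lie 32555 bases apart at chr4:44551296-44583850, so that it skips the stretch between. The first 30 bases of the clone probe and the whole transcript probe are shown because their readings disagree.

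Pax5 clone probe: atgtaattacagcagtgccaatttgccaaa
Pax5 transcript probe: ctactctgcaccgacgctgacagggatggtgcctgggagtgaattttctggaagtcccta

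On the clone probe the ratio was 1.16 and 1.20 in the Auto.Neg pair, 1.99 and 1.16 in the Auto.Pos pair, 0.17 and 0.25 in the WT pair, 1.29 in Non-edited and 2.19 in Edited. All 6 transgenic samples were above both WT samples, with the same sharing of slide and scan days as for Sdc1. Auto.Pos minus WT was 1.37 (95% interval 0.56 to 2.17, 2.58-fold; limma adjusted p = 0.537), and 0.91 on scan day 3. Auto.Neg minus WT was 0.96 (95% interval 0.16 to 1.77, 1.95-fold; limma adjusted p = 0.987). The transcript probe read 1.06 and 1.63 in the Auto.Neg pair, 1.37 and 0.65 in the Auto.Pos pair, 1.30 and 0.17 in the WT pair, 1.16 in Non-edited and 1.55 in Edited, so that WT 1 lay among the transgenic samples. On it Auto.Pos minus WT was 0.28 (standard error 0.49) and Auto.Neg minus WT 0.61, neither past the threshold in the fit of all probes (limma adjusted p = 1.00 for both). Its signal was low, with a sample median of 207 against 15727 on the clone probe, and the probes differed most, by 1.13, in WT 1. Without the samples of slide 2 the clone probe gave 0.95 and 0.94. By the table's sample names WT read 0.29 and 1.21, Auto.Pos 0.18 and 1.21 and Auto.Neg 1.47 and 1.75, and the separation from Auto.Pos ended (difference -0.057). Auto.Pos minus Auto.Neg was 0.40 (limma adjusted p = 1.00), with 0.80 on slide 2 and 0.0078 without the samples of slide 2, so that it rests on Auto.Pos 1.

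Spib, an ETS factor that supports receptor signalling in mature B cells and is also expressed by plasmacytoid dendritic cells, went the other way. Its probe A_51_P276267 lies at chr7:40700798-40700857 (mm7, minus strand; accession NM_019866), and its first 30 bases are

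Spib: aagtgctacaggccaagtaggctcaaactg

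The ratio was 3.30 and 2.34 in the Auto.Neg pair, 2.24 and 3.59 in the Auto.Pos pair, 4.05 and 4.23 in the WT pair, 3.58 in Non-edited and 3.43 in Edited. WT was highest, and the lowest values were again those of slide 2. Auto.Pos minus WT was -1.22 (standard error 0.55, 2.33-fold; limma adjusted p = 0.936) and Auto.Neg minus WT -1.32 (2.50-fold; limma adjusted p = 1.00). On scan day 3 Auto.Pos minus WT was -0.64, and without the samples of slide 2 the differences shrank to -0.55 and -0.84. By the table's sample names Auto.Pos minus WT was 0.0018, with Auto.Pos at 4.04 and 3.59 and WT at 4.27 and 3.36. Markers of dendritic cells had medians between 0.045 and 0.25 in all 8 samples. Against WT 7 of 8 were higher in Auto.Pos, with a median difference of 0.08 (0.0032 on scan day 3). Over all genes 12283 of 20467 were higher there. In Auto.Neg 4 of 8 were higher than in WT, with a median difference of -0.0019. The part of dendritic cells in the values of Spib was not tested.

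Irf4, which at a low dose serves activated B cells and at a high dose plasma cells, was read by probe A_51_P514985 at chr13:30132137-30132196 (mm7, plus strand). It was 0.88 and -0.36 in the Auto.Neg pair, 0.10 and 0.55 in the Auto.Pos pair, 1.05 and 0.97 in the WT pair, 0.89 in Non-edited and 0.96 in Edited. Its transcript was highest in WT, but Auto.Neg 1, Non-edited and Edited lay above both Auto.Pos samples. Auto.Pos minus WT was -0.69 (standard error 0.45; limma adjusted p = 1.00) and Auto.Neg minus WT -0.75, with 95% intervals of -1.83 to 0.46 and -1.89 to 0.39. On scan day 3 Auto.Pos minus WT was -0.42. By the table's sample names the separation of Auto.Pos from WT ended (difference -0.12), with Auto.Pos at 1.04 and 0.53 and WT at 0.98 and 0.83. Without the samples of slide 2 the differences were -0.46 and -0.13, so the latter rests on Auto.Neg 2.

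**Figure D2:**
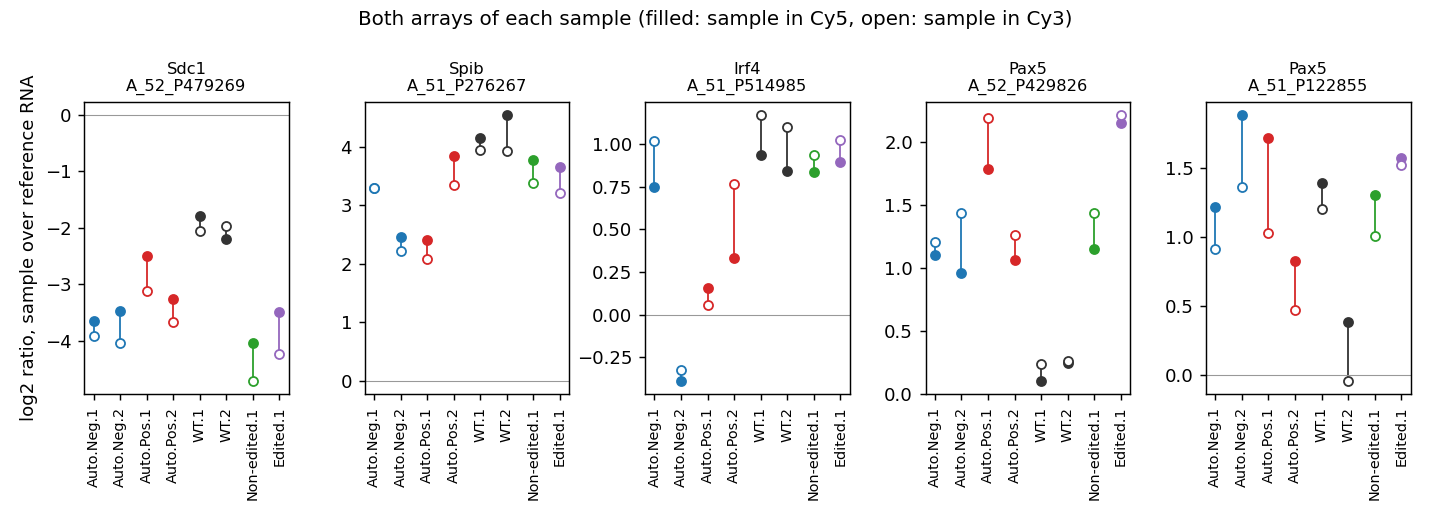
Log2 ratio of sample over reference (y axis, own range in each panel) on both arrays of each of the 8 samples (x axis) for the probes of Sdc1, Spib and Irf4 and both probes of Pax5, coloured by group. Filled points have the sample in Cy5 and open points in Cy3, joined by a line. The clone probe of Pax5, with WT at 0.17 and 0.25, separates WT, and the transcript probe, with WT at 1.30 and 0.17, does not.

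The remaining identity factors overlapped between the groups. Bcl6, a repressor of the plasma cell programme, was 3.51 and 4.41 in the Auto.Neg pair, 4.21 and 3.30 in the Auto.Pos pair and 3.67 and 2.97 in the WT pair. Non-edited read 3.65 and Edited 3.47, and the highest 2 of the 8 values were those of slide 2. Auto.Neg minus WT was 0.64, with a 95% interval of -0.62 to 1.89.

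Bach2, which holds back Prdm1, was 3.22 and 3.61 in the Auto.Neg pair, 3.52 and 2.41 in the Auto.Pos pair, 3.26 and 2.06 in the WT pair, 3.01 in Non-edited and 3.36 in Edited. Auto.Pos minus Auto.Neg was -0.45 (interval -1.86 to 0.96). A second Bach2 probe on a clone, A_52_P1140450, read between 0.29 and 1.86, but its reference channel was not well above background on any of 16 arrays and its sample channel on 13, so its ratios carry little information.

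Ebf1, the partner of Pax5 in early B cell commitment, was 1.34 and 1.25 in the Auto.Neg pair, 1.20 and 1.27 in the Auto.Pos pair, 1.41 and 0.76 in the WT pair, 1.34 in Non-edited and 1.45 in Edited. Its range of 0.69 over the 8 samples was the smallest of the 10 genes. The dyes mattered more than the samples here: in Auto.Pos 1 the array with the sample in Cy5 read 0.15 and the array with it in Cy3 read 2.25, and in all 8 samples the Cy3 array was the higher. A clone probe of Ebf1, A_52_P531838, read 1.19 and 0.49 in the Auto.Neg pair, 0.58 and 1.28 in the Auto.Pos pair and 2.37 and 1.01 in the WT pair, with its reference channel well above background on 6 of 16 arrays.

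Irf8, which cooperates with Spib's relative PU.1 in the follicular state, was read by 2 probes of the same transcript, NM_008320, which lie close together (chr8:119390963-119391022 and chr8:119391398-119391457, mm7, plus strand). Their first 30 bases are shown because both were bright and they moved in opposite directions on slide 2.

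Irf8 A_52_P354823: aacagacagggtcgacagagtgtgtgatac
Irf8 A_51_P187253: ccaatctggctgtccaacctagtttgtaag

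The brighter probe, A_52_P354823, read 2.76 and 3.25 in the Auto.Neg pair, 3.0 and 2.54 in the Auto.Pos pair, 3.07 and 2.74 in the WT pair and 2.78 in both Non-edited and Edited. The other read 3.39 and 2.13 in the Auto.Neg pair, 1.93 and 2.80 in the Auto.Pos pair, 2.84 and 2.66 in the WT pair, 3.30 in Non-edited and 3.15 in Edited. The samples of slide 2 were thus high in their group on the first probe and low on the second. Neither probe separated the groups, with Auto.Pos minus WT at -0.13 and -0.39.

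The samples of slide 2 differed from the other sample of their own group in the same direction for all 10 genes. The same held for 80.4% of all genes, so the agreement is not particular to these 10. Xbp1 moved most, with Auto.Neg 2 minus Auto.Neg 1 at -1.98 and Auto.Pos 1 minus Auto.Pos 2 at -1.83, at the 98.8 and 98.2 percentiles of all genes. Spib differed by -0.95 and -1.35 and Prdm1 by -0.66 and -1.14. Bcl6 differed by 0.90 and 0.92. These 4 genes passed 0.5 in the same direction in both groups, as did 27.3% of all genes. Slide, scanner and the state of the cells in these samples cannot be told apart.

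**Figure D3:**
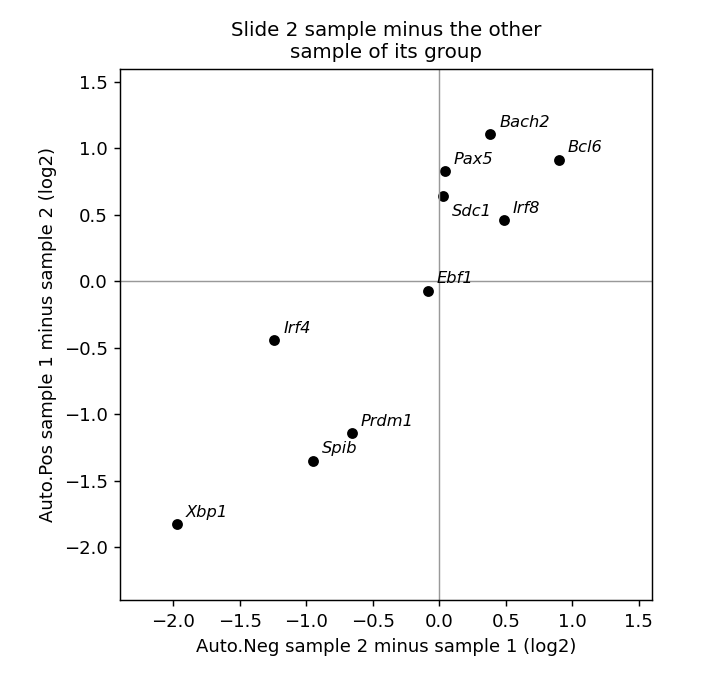
For each of the 10 genes, the slide 2 sample minus the other sample of its group, in Auto.Neg on the x axis and in Auto.Pos on the y axis, both in log2. All 10 points have the same sign on both axes, with Xbp1 at -1.98 and -1.83 and Bcl6 at 0.90 and 0.92.

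None of the 10 genes was called in any of the 3 comparisons by limma at an adjusted p under 0.05. At an unadjusted p under 0.05 the counts were 0 for Auto.Pos against Auto.Neg, and 2 (Pax5 and Sdc1) for Auto.Pos against WT and for Auto.Neg against WT. The shares of all genes at that limma p were 1.04%, 5.63% and 4.58% in the same order of comparisons. These shares also stand beside the unadjusted counts of the gene lists below. Over all genes 0.0147% were called for Auto.Pos against Auto.Neg, 0% for Auto.Pos against WT, 0% for Auto.Neg against WT and 0% in the F test over the 3 groups. The comparisons with WT and the F test had 1152, 938 and 820 genes at an unadjusted limma p under 0.05. Counts of 0 called members also came from every alternative but the random block for scan day (2 of 10 in Auto.Pos against WT, Pax5 and Sdc1, and 1 of 10 in Auto.Neg against WT, Sdc1) and the deposited table as labelled. Auto.Pos and WT share only scan day 3, with 1 sample each, and Auto.Neg and WT share none, so the block rests on single pairs.

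Samples of Auto.Pos and Auto.Neg did not overlap for 1 of 10 genes, Sdc1, which was higher in Auto.Pos, against 11.1% of all genes higher and 8.12% lower. Auto.Pos and WT did not overlap for 4 of 10: Pax5 was higher, against 19.1% of all genes, and Spib, Irf4 and Sdc1 were lower, against 10.4%. Auto.Neg and WT gave the same 4 genes in the same directions, against 15.3% of all genes higher and 9.61% lower. These comparisons share the WT samples, so they do not stand as separate observations. The median difference of the 10 genes was 0, -0.11 and 0.07 in the order Auto.Pos minus Auto.Neg, Auto.Pos minus WT and Auto.Neg minus WT, beside 0.02, 0.06 and 0.04 over all genes. The 95% intervals of single differences, not adjusted for the number of genes, reached between 0.69 and 2.27 to either side. Differences smaller than a gene's own interval could not be told from 0 with 2 samples a group. Larger ones also went uncalled after adjustment, such as -1.77 for Sdc1 in Auto.Neg minus WT, where the interval reached 0.69 to either side. The smallest difference that could be called was not determined.

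**Figure D4:**
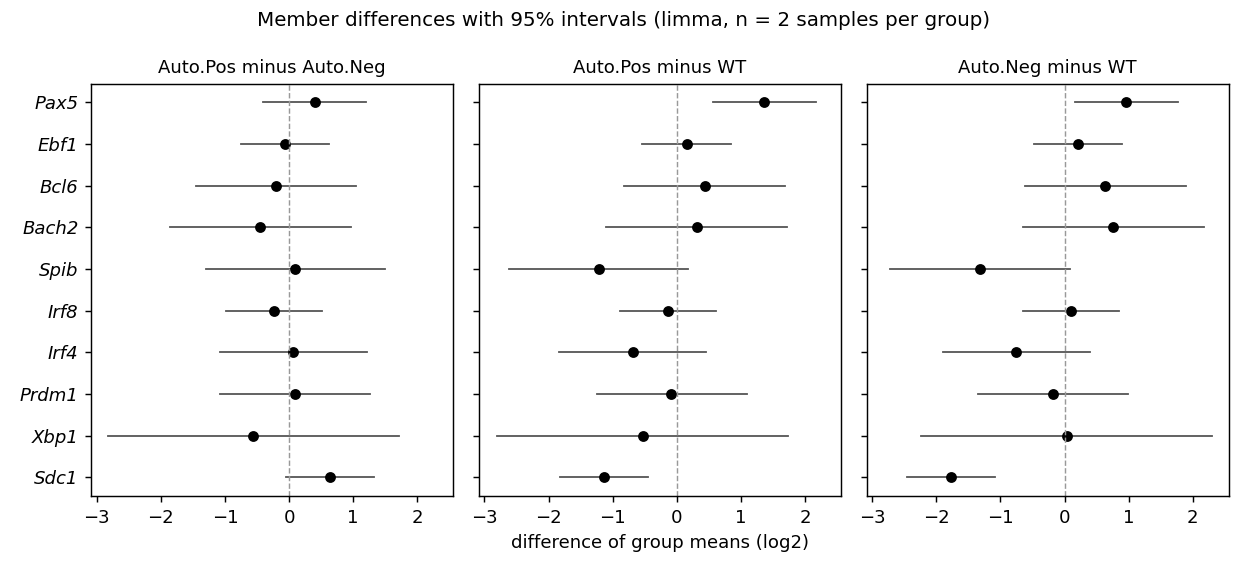
Difference of group means in log2 (x axis) for the 10 genes (y axis) in the 3 comparisons, as points with 95% intervals from limma's spread, n = 2 samples per group. The intervals of Pax5 and Sdc1 exclude 0 in both comparisons with WT before adjustment, and that of Xbp1 spans -2.80 to 1.74 in Auto.Pos minus WT.

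Edited and Non-edited, with 1 sample each, have no replicate check. Of the 10 genes only Xbp1 differed by 2-fold or more in both dye orientations, against 1.4% of all genes. It read 0.58 in Non-edited and -0.45 in Edited, a difference of -1.04, with -1.06 where the samples were in Cy5 and -1.02 where they were in Cy3. Without loess normalization, centred on the median alone, the difference was -0.72 and no longer 2-fold. Pax5 was 0.89 higher in Edited on the clone probe, with 1.00 and 0.78 in the orientations, and Prdm1 was 0.77 and Sdc1 0.51 higher. The Prdm1 difference depended on the processing and ran from 0.61 to 2.03 over 10 alternative settings, past 2-fold at its upper end. The difference of Irf8 was -0.0070, that of Irf4 0.073, that of Ebf1 0.11, that of Spib -0.15, that of Bcl6 -0.18 and that of Bach2 0.35. For Ebf1, Bcl6 and Irf8 the orientations differed in sign. With the spread of the replicated groups, and assuming that the lone samples vary like them, limma gave an adjusted p of 1.00 for each of the 10, and for Xbp1 a standard error of 1.26.

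**Figure D5:**
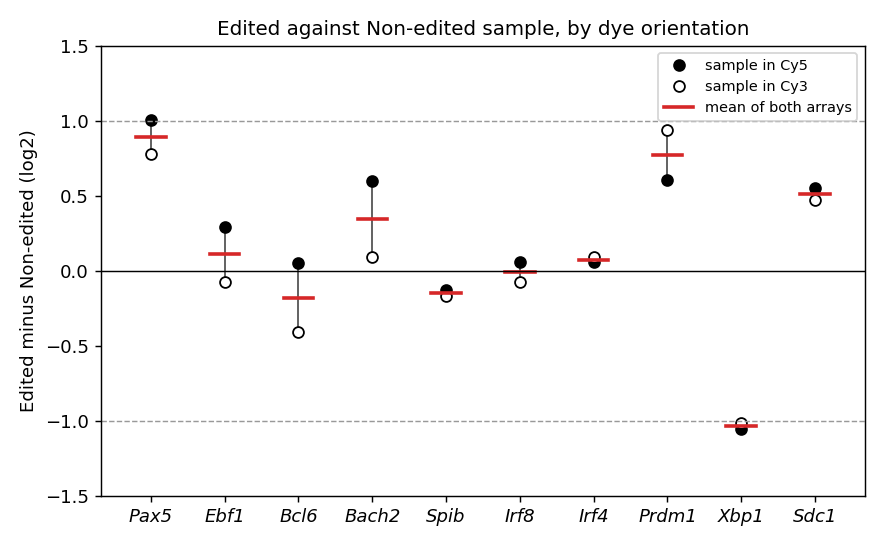
Edited minus Non-edited in log2 (y axis) for the 10 genes (x axis), with the sample in Cy5 (filled) and in Cy3 (open) and their mean (red bar). Dashed lines mark 2-fold. Xbp1, at -1.06 and -1.02, is the only gene past a line in both orientations.

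The genes that Pax5 or Ebf1 activate were compared beside their regulators. None of the 18 measured was called in any comparison, and the numbers at an unadjusted p under 0.05 were 0, 2 and 2. In Auto.Pos against WT 12 were higher and 6 lower, with a median difference of 0.03 (0.22 on scan day 3). In Auto.Neg against WT 10 were higher and 8 lower, with a median of 0.12.

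Among them Cd72, an inhibitory co-receptor of the B cell receptor, was 2.13 and 1.1 in the Auto.Neg pair, 0.62 and 0.92 in the Auto.Pos pair, 2.69 and 2.76 in the WT pair, 2.56 in Non-edited and 3.05 in Edited. Auto.Pos was lowest and did not overlap with either other group. Auto.Pos minus WT was -1.96 (standard error 0.38; limma adjusted p = 0.432) and Auto.Pos minus Auto.Neg -0.85 (limma adjusted p = 1.00). Cr2, the complement receptor CD21, was 0.74 lower in Auto.Pos than in WT (difference -0.74, limma adjusted p = 0.805). Ms4a1 (CD20) had a difference of -0.41 there and -0.70 in Auto.Neg minus WT. Vpreb1, part of the surrogate light chain of precursor B cells, had differences of 0.48 and 0.45.

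Of 26 partner factors of B cell identity 0 were called. At an unadjusted p under 0.05 there were 1, 3 and 1, and the median differences were 0.00, 0.02 and 0.08. Lef1, a factor of early lymphocytes, was -3.84 and -2.97 in the Auto.Neg pair, -3.59 and -4.69 in the Auto.Pos pair, -5.69 and -5.66 in the WT pair, -5.90 in Non-edited and -6.14 in Edited. It was thus higher in both replicated transgenic groups than in WT but not in Non-edited or Edited. Auto.Neg minus WT was 2.27 (standard error 0.47, limma adjusted p = 0.611) and Auto.Pos minus WT 1.54 (limma adjusted p = 0.735). Of 10 T cell markers 5 were higher in Auto.Neg than in WT, with a median difference of -0.01. In Auto.Pos 7 of 10 were higher than in WT, with a median of 0.18 (-0.0029 on scan day 3). The part of T cells in the values of Lef1 was not tested. Foxp1, a forkhead factor of mature B cells, was 2.57 and 2.43 in the Auto.Neg pair, 3.01 and 3.29 in the Auto.Pos pair, 2.44 and 2.48 in the WT pair, 2.87 in Non-edited and 3.21 in Edited. Auto.Pos minus Auto.Neg was 0.65 (standard error 0.20; limma adjusted p = 1.00). Bcor, a corepressor that Bcl6 recruits, had a difference of -0.70 in Auto.Pos minus WT (limma adjusted p = 0.768).

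A list of 32 genes of the secretory pathway and the unfolded protein response was set beside Xbp1. It includes Ern1, Atf6, Atf4 and Ddit3, so it does not read the targets of Xbp1 alone. None of the 32 genes was called, and at an unadjusted p under 0.05 there were 1, 2 and 0. Their median ratio lay between -0.66 and -0.34 in all 8 samples. The median differences were -0.02, -0.04 and 0.04. In Auto.Pos against WT 3 of the 32 were higher and 7 lower without overlap, beside 19.1% and 10.4% of all genes. Calr, the chaperone calreticulin, had a difference of -0.85 there and -0.59 in Auto.Pos minus Auto.Neg. Fkbp11, a folding enzyme of plasma cells, had differences of 0.57 and 0.54. Sdf2l1, an endoplasmic reticulum chaperone partner, had differences of -0.62 and -0.73 (limma adjusted p of 0.773 or more for each of these).

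Of 14 surface and secretion genes of plasma cells 13 were measured and 0 were called, with 1, 2 and 3 at an unadjusted p under 0.05. In Auto.Pos against WT 4 were higher and 9 lower, with a median difference of -0.43 (-0.48 on scan day 3). Jchain, which joins IgM and IgA into polymers, was -2.59 and -3.15 in the Auto.Neg pair, -4.03 and -3.64 in the Auto.Pos pair, -2.89 and -2.64 in the WT pair, -3.08 in Non-edited and -2.74 in Edited. Auto.Pos was the lowest group without overlap, and Auto.Pos minus Auto.Neg was -0.97 and Auto.Pos minus WT -1.07 (limma adjusted p = 1.00 and 0.631). Sdc1 thus had its higher values in Auto.Pos and Jchain its lower ones, relative to Auto.Neg.

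Cxcr4, the chemokine receptor that retains plasma cells in bone marrow, was 1.50 and 1.68 in the Auto.Neg pair, 2.04 and 1.1 in the Auto.Pos pair, 0.68 and 0.11 in the WT pair, 0.66 in Non-edited and 0.37 in Edited. Auto.Neg minus WT was 1.19 and Auto.Pos minus WT 1.17 (limma adjusted p = 0.989 and 0.790). Txndc5, a disulfide isomerase, read 0.46 and -0.46 in the Auto.Neg pair, -0.42 and 0.70 in the Auto.Pos pair, 1.62 and 1.13 in the WT pair, 0.61 in Non-edited and 0.66 in Edited. All 6 transgenic samples were below both WT samples, as for Sdc1 and with the same sharing of slide and scan days. The differences were -1.38 and -1.24 (limma adjusted p = 1.00 and 0.913). Tnfrsf13b, the receptor TACI, had differences of -0.96 and -0.76. Of 12 germinal centre genes 11 were measured, 0 were called and 0 had an unadjusted p under 0.05 in any comparison. Fas, the death receptor raised on germinal centre cells, had a difference of -0.72 in Auto.Pos minus Auto.Neg. Rgs13, a regulator of chemokine signalling, had a difference of 1.26 in Auto.Neg minus WT, with WT at -2.11 and -0.42.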

How the data were processed

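Gene expression was measured on 16 dual-colour arrays of 8 samples. Per the file headers, the scanner files hold spot and local background intensity per channel, written by Agilent Feature Extraction (9.5.1.1 for most, 9.1.1.1 for slide 2 and 9.1.3.1 for WT 1), and a log10 ratio of red over green. The deposited series table holds a log2 ratio per array, for which the submitters' processing notes name limma without a version; its scale and direction were set by its match to the arrays, with absolute correlations of 0.977 to 0.996. Intensity was used, and the other units served as alternatives. Beyond this the authors' processing is not given in the sources used here.

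Values were computed with R 4.3.3, data.table (version 1.17.8) and limma 3.58.1: normexp background correction with an offset of 50, loess within arrays with control spots at weight 0, ratios turned to sample over reference, and the mean of the 2 arrays of a sample, 358 gene-by-sample values resting on 1 array. A probe was kept if at least 2 samples had it well above background on both of their arrays, and the brightest kept probe stood for a gene in the fit. Names came from accession (22951), symbol (6659), synonym (3109) or the file (8455). limma was fitted to all 8 samples with 1 mean per group (3 residual and 2.11 prior degrees of freedom, 5.11 for the 95% intervals), with p-values adjusted by Benjamini and Hochberg over 20467 genes. The fit was tested on simulated data. A gene was called at an adjusted p under 0.05. The number of arrays limits the precision. Edited and Non-edited were compared by genes 2-fold apart in both orientations.

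All 10 members are named. From each list the called genes were to be named, or else up to 4 genes per comparison with the largest difference among those whose groups do not overlap; the text gives a part of these. The members and lists were chosen with earlier results of these data known. Same-numbered samples of Auto.Neg and Auto.Pos deviated from their group means in opposite directions (r = -0.788), so the numbers were not taken to pair samples. Probe sequences and mm7 coordinates are those of the deposited files; gene annotation of that build was not used here.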

Additional observations from a re-analysis of the deposited data

How the results depend on the processing

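With 2 samples a group the counts of called genes are unstable. For Auto.Pos against Auto.Neg, 3 genes in the report, the count was 0 after scaling between arrays, without the filter on dim probes, on the Cy3 arrays alone, in the fit of the 4 samples compared, under the replicate block, without the samples of slide 2 and under the table's names turned to sample over reference. It was 1 with median centring, 12 on the Cy5 arrays, 6 with the scanner protocol as a block (which for these groups is the crossed pairing), 40 with scan day as a random block and 0 to 0 on leaving out each sample. For Auto.Pos against WT, 0 in the report, it was 15 with the scanner's log ratio, 72 on the Cy5 arrays, 4199 with scan day as a random block (correlation 0.918), 14 with the table's columns rematched and 13 at an adjusted p under 0.1. For Auto.Neg against WT, 0 in the report, it was 60 on the Cy5 arrays, 466 with scan day and 1 with the rematched table. For the F test, also 0, it was 3 with the scanner's log ratio, 4 with the strict filter, 4 with the mean of probes, 68 on the Cy5 arrays, 2508 with scan day, 4 with the rematched table and 4 at the threshold of 0.1. The replicate block changed no other call.

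Member calls, 0 in the report, were 2 and 1 with scan day, in the comparisons of Auto.Pos and Auto.Neg with WT. The 3 calls were Pax5 (1.00, adjusted p = 0.0153) and Sdc1 (-1.33 and -2.21) under limma with that block. At so high a correlation the fit leans on differences within a scan day. Only scan day 3 holds both Auto.Pos and WT, with 1 sample each, and no scan day holds both Auto.Neg and WT. These calls thus rest largely on single pairs of samples and are not taken as results. The deposited table as labelled averages columns of opposite sign in Auto.Neg. It gave 7704, 6964 and 6566 called genes for Auto.Pos against Auto.Neg, Auto.Neg against WT and the F test, and 6 and 7 called members in the first 2. It reversed Auto.Pos minus Auto.Neg for Ebf1 (1.23), Bcl6 (3.53), Bach2 (2.84), Irf8 (2.77), Prdm1 (-2.59) and Sdc1 (-2.78), Auto.Pos minus WT for Pax5 (-0.057), Spib (0.0018) and Sdc1 (0.33), and Auto.Neg minus WT for Pax5 (-0.75), Ebf1 (-0.96), Bcl6 (-3.32), Bach2 (-2.67), Irf8 (-2.77), Prdm1 (2.92) and Sdc1 (3.11). Turned to sample over reference it reversed Pax5 in Auto.Pos minus Auto.Neg (-0.92) and, as before, Pax5 (-0.057), Spib (0.0018) and Sdc1 (0.33) in Auto.Pos minus WT.

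Among the other settings 1 reversed, Pax5 in Auto.Pos minus Auto.Neg, at -0.013 to 0.82 on leaving out each sample. A further 63 signs changed for differences smaller than their standard error. Outside the table as labelled, that table turned (Sdc1 -0.26 in Auto.Neg minus WT) and the scan day block, Sdc1 ran from -2.05 to -1.43 in Auto.Neg minus WT (adjusted p 0.236 to 1.00) and Pax5 from 0.82 to 1.78 in Auto.Pos minus WT (0.263 to 1.00). For Edited minus Non-edited 95 of 100 values stayed within the pooled SD. The slide as a random block could not be fitted, since 1 slide holds 2 samples and all others 1. The rematched and turned tables and the fit without slide 2 were chosen after seeing the data. Where the cause of a change is not named, the cause was not tested. The dim signals of Prdm1 and Sdc1 in the sample channel limit their precision, and the offset draws their ratios toward 0, more so for Prdm1.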
